A study of Drosophila melanogaster with 2 samples.

Results

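The regions described here lie in the pericentromeric ends of 4 Drosophila melanogaster chromosome arms, in a map of the homeodomain protein Ladybird early (Lbe). They were chosen by position alone, from the pooled list of peak and background regions in dm6. A region is a member when its summit lies above position 22000000 on arm 2L, above 22900000 on 3L, below 4200000 on 3R or above 22600000 on X. Of 29999 regions in the pooled list, 151 are members (0.503%): 53 on 2L, 34 on 3L, 22 on 3R and 42 on X. The comparison is with the other 24279 pooled regions of the same 4 arms.

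Chromatin immunoprecipitation and sequencing was done on whole embryos aged 0 to 24 h, male and female pooled, from a transgenic line that makes Lbe with GFP at its C-terminus. The precipitating antibody recognised GFP. There is 1 group, made of 2 biological replicates from the same line, so every condition is shared and the comparisons are between places in the genome and between replicates. All embryonic tissues and stages were mixed, and the files hold regions without read counts, so the depth of each library is unknown.

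Pericentromeric heterochromatin is the compact chromatin beside a centromere, marked by methylated histone H3 lysine 9 and the protein HP1a. It is rich in transposable elements and satellite repeats, which makes short reads hard to place. It also holds essential genes that are transcribed there, often long genes with introns full of transposon remnants. Lbe is an NK-type homeodomain factor known for specifying subsets of muscle, heart and neural cells, and homeodomains bind short words rich in A and T.

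The summit sequences of 6 members are shown because the results turn on them. CG42748 and the shared promoter of Rab21 and Coa7 hold the strongest members of their arms past the irreproducible discovery rate (IDR) threshold. Among the members, tio and Clamp hold the remaining IDR peaks, and RpL5 and RpL15 lead the ribosomal protein genes. Stronger IDR peaks lie elsewhere on the same arms. The last 4 of the 6 were picked after their values were seen. Each sequence runs 100 bp to either side of the summit on the plus strand of the release 6 genome. Capitals mark GAGAGA or its reverse complement TCTCTC, and the homeodomain core TAATTA.
CG42748, chr2L:22134098-22134298: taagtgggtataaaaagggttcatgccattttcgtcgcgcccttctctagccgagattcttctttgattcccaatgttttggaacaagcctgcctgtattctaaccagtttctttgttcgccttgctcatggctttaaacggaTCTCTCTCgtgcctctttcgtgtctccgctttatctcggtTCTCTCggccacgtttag
tio, chr2L:22018987-22019187: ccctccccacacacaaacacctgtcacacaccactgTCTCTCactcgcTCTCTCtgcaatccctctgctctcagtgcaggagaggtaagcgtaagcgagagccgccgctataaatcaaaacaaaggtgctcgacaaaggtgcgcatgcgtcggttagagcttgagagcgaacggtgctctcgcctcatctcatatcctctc
Clamp, chr2L:22168706-22168906: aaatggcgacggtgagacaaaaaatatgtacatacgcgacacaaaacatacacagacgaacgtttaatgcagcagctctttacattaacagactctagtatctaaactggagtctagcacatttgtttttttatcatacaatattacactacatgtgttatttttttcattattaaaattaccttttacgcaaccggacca
Rab21 and Coa7, chrX:23013295-23013495: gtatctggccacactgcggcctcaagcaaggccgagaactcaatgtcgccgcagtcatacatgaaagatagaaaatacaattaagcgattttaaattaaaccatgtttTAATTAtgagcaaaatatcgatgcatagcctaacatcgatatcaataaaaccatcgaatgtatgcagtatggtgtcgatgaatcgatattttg
RpL5, chr2L:22536472-22536672: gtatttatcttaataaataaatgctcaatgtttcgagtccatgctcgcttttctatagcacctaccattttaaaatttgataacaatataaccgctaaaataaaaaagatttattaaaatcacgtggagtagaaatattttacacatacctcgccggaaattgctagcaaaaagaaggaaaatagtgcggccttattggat
RpL15, chr3L:27267313-27267513: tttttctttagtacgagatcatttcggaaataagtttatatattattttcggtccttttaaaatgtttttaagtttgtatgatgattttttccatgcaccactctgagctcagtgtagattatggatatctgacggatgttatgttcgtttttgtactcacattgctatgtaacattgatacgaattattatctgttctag

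Regions were sparse in these windows. The windows span 11.87 Mb, or 11.1% of the length of the 4 arms, and held 0.618% of the 24430 pooled regions on those arms. Their density was 12.7 regions per Mb (95% exact Poisson interval 10.8 to 14.9), against 254.6 per Mb (251 to 258) on the rest of the arms, a ratio of 20. No test was run on this or any later contrast, since regions of 1 genome are not replicates of a condition. Intervals cover counting error only. By arm, density was 35.0 per Mb on 2L, 6.53 on 3L, 5.24 on 3R and 44.6 on X, against 237, 285, 235 and 264 regions per Mb on the rest of each arm.

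Much of the window sequence is repeated. Words of 36 bases that occur once in the genome made up 41.9% of window positions and 94.4% of the rest. Per Mb of such single-copy sequence the windows held 30.4 regions and the rest 270, a ratio of 8.87. Annotated transposable elements covered 14.9% of the windows and 4.07% of the rest, and with them left out the ratio was 17.5. Genes are also rarer there, with 116 protein-coding genes that start in the windows (9.78 per Mb) against 10897 (114 per Mb). Per gene, the windows held 1.30 regions and the rest 2.23. How far copy number, gene density and chromatin each account for the low density was not tested.

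Members crowded at the euchromatic side of the windows. Of the 151, 78 lay within 250 kb of the edge used in the rule, 115 within 500 kb and 126 within 1000 kb. Over the 4 arms, density was 137.5 regions per Mb in the last 500 kb outside the edge, 57.5 in the first 500 kb inside it and 5.66 in the next 500 kb. Per Mb of single-copy sequence these bins held 185, 84.6 and 13.9 regions. The deepest member lay 1176 kb inside on 2L, 465 kb on 3R and 508 kb on X. On 3L, whose window is 5210 kb long against 1514 kb on 2L, members continued to 5113 kb. Beyond 1000 kb, 3L held 19 of its 34 members, or 4.51 per Mb, and 2L held 6 of its 53, or 11.7 per Mb. On X the density per Mb was 20 from 1000 to 500 kb outside the edge, 72 in the last 500 kb outside, 76 in the first 500 kb inside and 9.04 beyond. Single-copy words made up 16.8%, 36.3%, 82.3% and 20% of those X bins. Per Mb of single-copy sequence the X bins held 119, 198, 92.4 and 45.2 regions, so the step at the X edge appears on that scale and not per Mb of length.

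**Figure D1:**
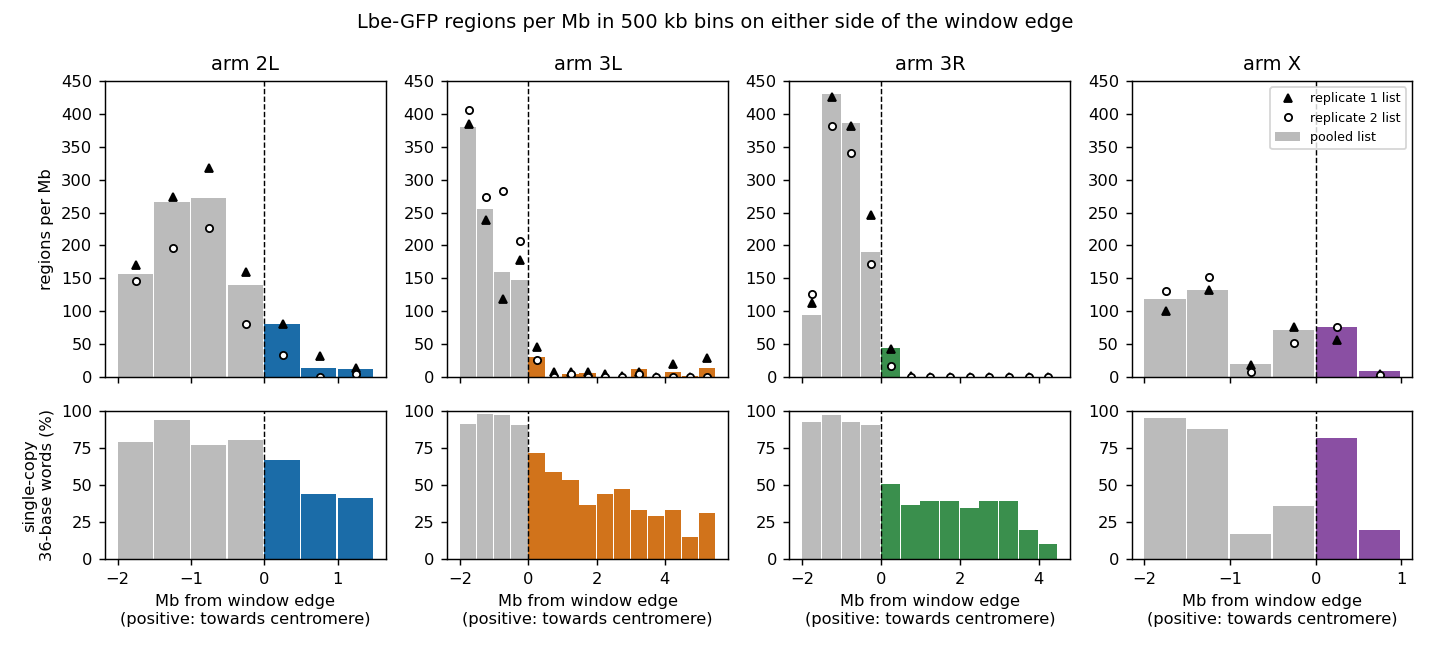
Regions per Mb in 500 kb bins against distance in Mb from the window edge of each arm, positive towards the centromere, with grey bars outside the window, coloured bars inside it, triangles for replicate 1 and circles for replicate 2; the lower panels give the percent of 36-base words that are single-copy. On 2L, 3L and 3R the bars inside the first bin (80, 30 and 44 per Mb) are lower than the last bar outside (140, 148 and 190), while on X both are similar per Mb of length (76 and 72), with 82.3% and 36.3% single-copy words.

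The edge positions are round numbers, and the regions nearest to them ranged from an IDR peak to some of the weakest of the list. Signal is the value of the authors' peak caller, on a scale not stated, and rank 1 is the strongest of the pooled list. On 2L the first member inside was the IDR peak at tio, 19.1 kb from the edge with signal 163.8, and the last region outside was 66.2 kb away with signal 44.4. On 3L these were a region at CG12768 (10.1 kb, signal 30.8) and one at the amino acid transporter gene slif (9.65 kb, signal 49.3). On 3R they were at beta-Man, a mannosidase gene (2.80 kb, signal 56.5), and at CG14636 and aux (14.3 kb, signal 98.6), the latter just under the lowest IDR signal of 98.7. On X they were a region of Cda4, a chitin deacetylase gene (31.5 kb, signal 19.5, rank 29251), and one assigned to no gene (57.7 kb, signal 26.3).

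Few members passed IDR. A summit of the IDR list lay within 200 bp of 5 of 151 members, or 3.31% (95% Wilson interval 1.42 to 7.52), against 16.8% of the rest of the arms. These 5 correspond to 4 IDR peaks, 3 on 2L and 1 on X, since the fifth member is a region of signal 30.1 beside the Rab21 and Coa7 peak. That gives 0.337 IDR peaks per Mb in the windows against 40.1 on the rest. On these arms the IDR list was close to a cut on pooled signal. On the rest, 3826 regions were IDR peaks and 3827 ranked among the strongest 4782, the length of the IDR list. In the windows both counts were 4. The IDR shares and the low signals given below are thus not separate results. On 3L 0 of 34 members passed, which allows a share of up to 8.82% at 3 counts, and on 3R 0 of 22, which allows up to 13.6%. The share on the rest of those arms was 17.2% and 18.6%.

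All 4 IDR peaks sat at promoters in the outermost 500 kb of their windows. The strongest was at a start site of CG42748 (2L, 22133993 to 22134402), with signal 167.7 and pooled rank 1808. It ranked 4318 in replicate 1 and 991 in replicate 2, and its summit was 135 bp from the start site. Its printed sequence holds TCTCTC downstream of the summit on the plus strand. The next, signal 163.8 and rank 1894, lay at tio (2L, 22018882 to 22019291), which encodes a zinc finger protein of the teashirt family, and at lncRNA:CR33987. It ranked 4707 in replicate 1 and 1035 in replicate 2, so both of these peaks stood higher in replicate 2.

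The other pair stood higher in replicate 1. The peak at Clamp (2L, 22168601 to 22169010), the gene of a zinc finger protein that takes part in dosage compensation, had signal 140.2 and rank 2634. It ranked 2095 in replicate 1 and 5181 in replicate 2. The X peak lay between the divergent genes Rab21, a small GTPase of membrane traffic, and Coa7, an assembly factor of cytochrome c oxidase (X, 23013190 to 23013599). It had signal 124.2 and rank 3281, with rank 2340 in replicate 1 and 7002 in replicate 2, and its sequence holds TAATTA beside the summit. The Clamp sequence holds none of the words searched.

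The strongest members that missed IDR were also mostly at start sites. A region at fog, which encodes the secreted protein Folded gastrulation, had signal 93.7 and rank 5175 (X, 22855129 to 22855538) and ranked 7636 in replicate 1 and 5373 in replicate 2. The region at RpL5, a protein of the large ribosomal subunit, had signal 93.6 and rank 5192 (2L, 22536367 to 22536776). It ranked 4341 in replicate 1 and had no match in replicate 2. The antisense RNA gene asRNA:CR45009 followed on X with signal 91.3 and ranks of 5665 and 11484 in replicates 1 and 2. CG12581 on 3R had signal 86.3, with rank 13605 in replicate 1 and no match within 200 bp in replicate 2. A region in the 3′ UTR of tio had signal 85.9, with rank 13189 in replicate 1 and 3143 in replicate 2. Of these 5, then, 2 were matched within 200 bp in 1 replicate alone. Replicate 2 did list a region within 1000 bp of a CG12581 start site, at rank 12040.

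Signals of members were low as a set. Their median was 27.3 (quartiles 21.7 and 43.7), against 41.1 (27.0 and 72.1) on the rest of the arms, and the highest was 167.7 against 1790 there. The deposited −log10 q-value, higher for stronger evidence, had a median of 0.386 for members and 0.888 for the rest. Of the 151, 59.6% ranked among the weakest 10000 pooled regions, against 33.6% of the rest, and 13.2% among the strongest 10000, against 32.9%. The medians by arm lay between 24.8 on 3R and 27.8 on 3L. Members beyond 500 kb of the edge, 36 in number, had a median of 25.1.

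**Figure D2:**
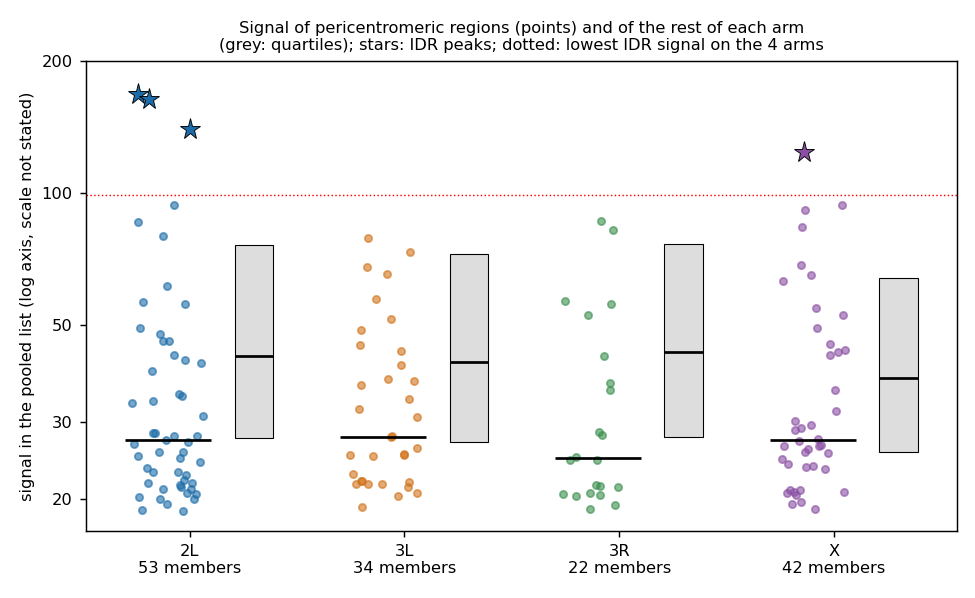
Signal of each member (points, log axis) by arm, with the member median as a black line, the quartiles and median of the rest of the arm in grey, stars for the 4 IDR peaks and a dotted line at the lowest IDR signal of 98.7. The stars lie on 2L and X alone, and each member median (24.8 to 27.8) is lower than the median of the rest of its arm.

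The replicates did not list the same pericentromeric regions. Each replicate list holds 29999 regions, of which 173 lay in the windows in replicate 1 and 83 in replicate 2. On 2L, 3L and 3R the replicate 1 counts were 63, 58 and 22, and the replicate 2 counts 19, 17 and 8. On X the order was the other way, with 30 in replicate 1 and 39 in replicate 2. On the rest of the 4 arms together the lists were close, at 252 and 254 regions per Mb. The rest of X had the same order as its window, at 240 per Mb in replicate 1 and 275 in replicate 2. The rest of 2L (245 and 229) and of 3L (287 and 273) had more in replicate 1, and 3R was near even (239 and 240). Over the 4 arms, the ratio of outside to inside density was 17.3 in replicate 1 and 36.3 in replicate 2.

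Of the members, 40 had a summit of both replicate lists within 200 bp (26.5%, interval 20.1 to 34.0), against 52% of the rest of the arms. A further 64 matched replicate 1 alone (42.4% against 26.8%), 16 matched replicate 2 alone (10.6% against 15%) and 31 matched neither (20.5% against 6.11%). The members' lower ranks move with this in part. Among the weakest 10000 regions the shares matched in both were 8.89% for 90 members (interval 4.57 to 16.6) and 14.9% for the rest. The share of the rest lies within that interval. So does the share with a replicate 1 match, 52.2% for members (42.0 to 62.2) and 55.6% for the rest. The share with a replicate 2 match was 23.3% (15.8 to 33.1) against 42.8%. Matched in neither were 33.3% (24.5 to 43.6) against 16.5%. For these last shares the rest lies outside the members' interval. Of the 36 members beyond 500 kb, 23 had a match in replicate 1 (63.9%, against 68.9% of all members), 6 in replicate 2 (16.7% against 37.1%) and 13 in neither (36.1% against 20.5%). In the replicate lists themselves, 61 of the 173 regions of replicate 1 were that deep and 7 of the 83 of replicate 2.

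**Figure D3:**
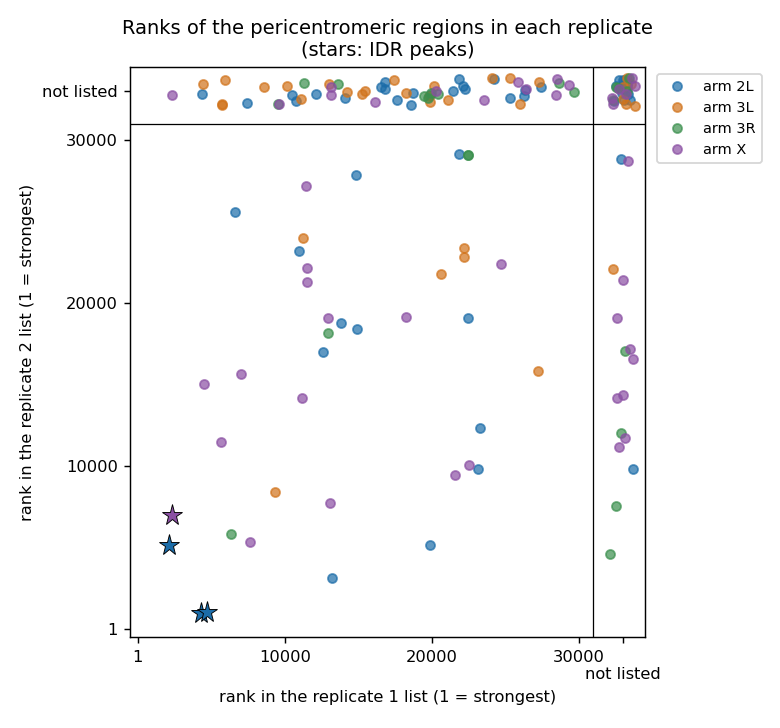
Rank of each member in the replicate 1 list (horizontal) and in the replicate 2 list (vertical), where 1 is the strongest, with members that a list lacks in the outer strips (positions there are spread at random for display) and stars for the 4 IDR peaks. The strip of members missing from replicate 2 is fuller (64 in replicate 1 alone) than the strip missing from replicate 1 (16 in replicate 2 alone), and 31 are in neither.

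All 4 cytoplasmic ribosomal protein genes of the windows were listed in replicate 1 and not in replicate 2. This group was picked after the values were seen, and 34 of all 116 window genes were listed in the same way, against 1210 of 10897 on the rest. RpL15 (3L, 27267208 to 27267617, signal 78.8), which lies 4367 kb inside the window, ranked 4417 in replicate 1 and was not matched in replicate 2. RpL10 on 3L had signal 65.2 and rank 5905 in replicate 1, and RpL21 on 2L had signal 42.6 and rank 12144. With RpL5, described above, these are genes of the large ribosomal subunit, and each also had a start-site region in the pooled list. Base composition differed between the lists as well: A and T made up 66.2% of bases at the window summits of replicate 1 and 60.7% at those of replicate 2, against 64.1% and 59.0% on the rest. Of the 6 sequences printed above, those that ranked higher in replicate 1 or were missing from replicate 2 are 62.2% (Rab21 and Coa7), 66.2% (Clamp), 68.7% (RpL5) and 69.7% (RpL15) A and T. Those higher in replicate 2 are 45.3% (tio) and 53.2% (CG42748). Not every member follows this order. The region at CG12581 (signal 86.3) had 46.3% A and T, rank 13605 in replicate 1 and no replicate 2 summit within 200 bp. A region in introns of fog and CG42346 (X, 22841143 to 22841552) had 67.2% A and T and ranks of 22511 and 10067 in replicates 1 and 2. The part of base composition in the replicate difference was not tested.

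Most members lay in or near genes. The summit was within 500 bp of a start site for 65 members (43.0%, interval 35.4 to 51.0), against 31.6% on the rest of the arms. Introns held 45 (29.8% against 42.4%), 3′ UTRs 18 (11.9% against 6.88%), coding exons 6 (3.97% against 1.44%) and intergenic sequence 14 (9.27% against 15.8%). The remaining 3 were in 5′ UTRs or other exons. Within 1000 bp of a start site lay 77 members (51.0% against 43.7% on the rest). A further 65 lay in a gene body (43.0% against 43.1%) and 9 could be given to no gene (5.96% against 13.2%). The 3′ UTR members were on 2L (9), X (8) and 3R (1), with none on 3L.

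Members are not independent places. Of the 151, 58 overlap another member (38.4%, against 36.9% on the rest), and merging the overlaps leaves 120 loci. The largest group, 29 members within 5 kb of the next, runs from 22117885 to 22151464 on 2L. It covers CG3651, CycK (a cyclin that partners a transcription kinase), most of CG42748 and dunk, and includes the strongest IDR peak of the windows. Groups of 9 lie at FucTC, Rab21, Coa7 and the stoned genes (X, 23004935 to 23013798) and at su(f) and ATbp (X, 23092608 to 23107752). These 3 groups hold 47 of the 151 members.

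Of the 116 protein-coding genes that start in the windows, an IDR summit fell within 1000 bp of a start site for 5: tio, CG42748, Clamp, Rab21 and Coa7. That is 4.31% (1.85 to 9.69), against 24.9% of 10897 genes on the rest of the arms. Any pooled region was present at 45 (38.8%, 30.4 to 47.9), against 52.6%. The pooled list includes background regions, so a region at a gene is not by itself a call of a peak. By replicate, 56 window genes had a region in replicate 1 (48.3% against 56.7%) and 27 in replicate 2 (23.3% against 52.3%). Genes with replicate 1 alone numbered 34 and with replicate 2 alone 5, against 1210 and 723 on the rest. The strongest region of a gene had a median signal of 47.5 in the windows and 93.4 elsewhere. Window genes were longer, with a median of 6560 bp against 2164 bp.

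By depth, a pooled region lay at the start site of 18 of 40 genes in the first 250 kb, 16 of 28 from 250 to 500 kb, 3 of 19 from 500 to 1000 kb and 8 of 29 beyond. Replicate 2 had a region at 3 of those 29 and replicate 1 at 14. The deep genes with a pooled region included RpL15, the helicase gene Dbp80, l(3)80Fj (signal 45.0, 5113 kb inside), l(3)80Fg (32.1), CG40045 (48.7), CG42598 (26.1) and scro, an NK-type homeobox gene (27.7). On 2L the deep gene was CG12567 (47.5). CG40045, CG12567 and l(3)80Fg were the ones among these 8 with a region of both replicates at a start site. A stronger region in an intron of l(3)80Fg (signal 73.3, rank 7401) lay 1221 bp from its start site, past the 1000 bp limit. That region ranked 5724 in replicate 1 and had no match in replicate 2.

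**Figure D4:**
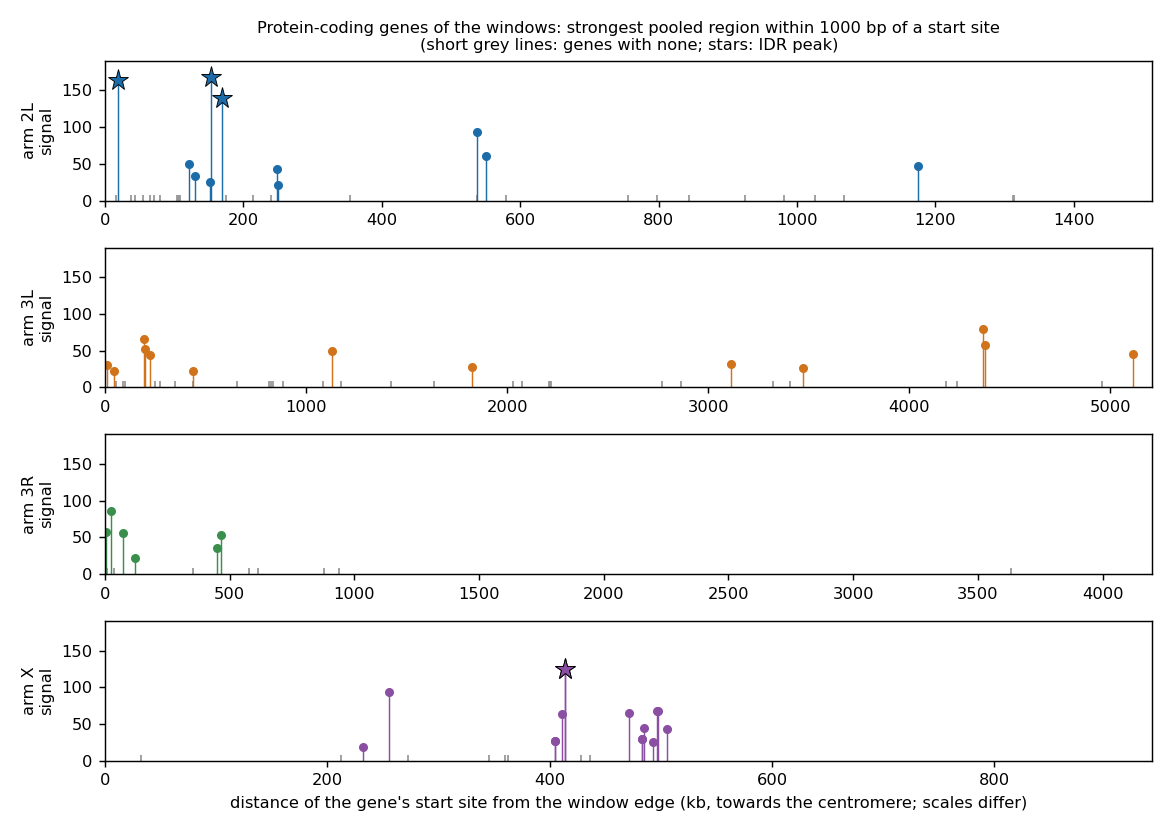
Each protein-coding gene that starts in a window, at its distance in kb from the edge (horizontal scales differ between arms), with the signal of its strongest pooled region within 1000 bp of a start site (vertical), short grey lines for genes with none and stars for genes with an IDR peak. The 5 genes with an IDR peak all lie within 500 kb of the edge, and signals beyond 1000 kb do not pass 78.8.

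The 18 genes of a list of known heterochromatic genes all lay in the windows, as the choice of the list intends. A pooled region lay at a start site of 6 of them, beside 45 of all 116 window genes (38.8%). None had an IDR peak, 0 of 18, which at 3 counts allows up to 16.7%, beside 4.31% of all window genes. Besides RpL5 and RpL15, Dbp80, a DEAD-box helicase, had signal 57.2 and rank 10265, with rank 15435 in replicate 1 and no match in replicate 2. The X gene su(f), which acts in mRNA 3′-end processing, had signal 68.4 and rank 8173, with ranks of 11190 and 14188 in replicates 1 and 2. The stoned genes stnA and stnB, which encode synaptic vesicle proteins from 1 dicistronic transcript, share a region of signal 27.4 and rank 22284.

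The other 12 listed genes had no pooled region at a start site. In this set are lt, a vesicle traffic gene and a classic case of a gene that needs heterochromatin, with 1 weak region in its body (signal 24.2), and cta, a G protein alpha subunit. So are the ecdysteroid synthesis genes nvd and spok, the cohesin gene vtd, the SNARE gene Snap25, the piRNA factor gene AGO3, the translation factor gene eIF4B, Pzl, Parp1, Myo81F and the histone methyltransferase gene Set1. Replicate 1 had a region at the start sites of vtd (rank 11143), cta (17012), Set1 (27325) and AGO3 (28788). Of the whole list, 10 of 18 genes had a start-site region in replicate 1 and 3 of 18 in replicate 2, beside 48.3% and 23.3% of all window genes. On 3L and 3R, 2 of 12 listed genes had a pooled region at a start site, where 13 of all 42 window genes of 3L and 6 of 14 of 3R had one.

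Members lay in single-copy sequence for the most part, within repeat-rich windows. All 36-base words within 100 bp of the summit occurred once in the genome for 139 members (92.1%, against 98.9% on the rest). In 1 member (0.662%, against 0.0824%) under 50% of the words were single-copy: a region at CG17493 inside a 1360 element, with signal 19.5, 10.2% single-copy words, a median of 68.5 copies per word and no match in either replicate. Summits inside annotated transposable elements numbered 8 (5.30%, interval 2.71 to 10.1), against 0.342% (0.276 to 0.424) on the rest. Both shares were lower than the length that such elements cover, 14.9% of the windows and 4.07% of the rest. The 8 summits were in INE-1 (5), 1360 (1), Ivk (1) and Tc3 (1), and 7 of the 8 ranked among the weakest 10000 regions. The exception was the Ivk summit, in an intron of lncRNA:CR46480, with signal 46.0, rank 14863 in replicate 1 and 27843 in replicate 2.

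Summits of members were rich in A and T, at 65.2% within 100 bp (SD 6.69 across 151 members), against 62.6% on the rest (SD 7.5). Windows 600 bp away held 63% and 58.1%, so the surroundings of members were richer in A and T too. Words were searched on both strands within 100 bp of the summit, and none of them contains another. The homeodomain core TAATTA lay at 30 members (19.9% against 16.3% on the rest) and TAACTA, the word given for ladybird proteins, at 16 (10.6% against 11.1%). GAGAGA lay at 11 (7.28% against 10.6%), the DRE word TATCGATA at 5 (3.31% against 2.26%) and the promoter word GGTCACAC, Motif 1, at 1 (0.662% against 1.55%). The DRE word was at su(f), beta-Man, ATbp, the shared region of CG3651 and CycK, and 1 region assigned to no gene, none of them IDR peaks. For each of the 5 words the share on the rest lay within the members' interval, which ran from 14.3 to 26.9% for TAATTA and from 1.42 to 7.52% for the DRE word.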

How the data were processed

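For Lbe-GFP ChIP-seq the authors deposited narrowPeak region lists in dm3 and dm6, per the file headers and listings: peak and background regions of each replicate and of both pooled, and peaks past the IDR threshold. No source used here names the aligner or the peak caller. Each region carries the signal value that the authors' caller gave it, on an unstated scale, so signal was used to rank and describe within 1 list. Each also carries a deposited −log10 q-value, which was not used for ranking. A control is named in the labels and was not analysed here.

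Members were selected by summit in the dm6 pooled list. The windows, words and gene lists were chosen with earlier results of these data known. Regions were compared by summits within 200 bp, start sites within 500 bp (category) or 1000 bp (genes), using genes of the BDGP6.54 annotation (Ensembl release 115). Copies of each 36-base word were counted on both strands of the release 6 genome sequence. A region went to every gene with a start site within 1000 bp, otherwise to the gene body it lay in. Named genes are the IDR members, the 5 strongest other members and 18 known heterochromatic genes, of which Parp was matched as Parp1. Others were named after their values were seen. Shares have 95% Wilson intervals and densities exact Poisson intervals. There are no p-values, since there is 1 group. The dm3 lists served for counts alone. Python 3.11.15, numpy 2.4.6 and scipy 1.17.1 were used, and the counting steps were tested on simulated data. Alternatives were window edges moved by 500 kb, single replicates, the strongest 10000 regions, other match distances and, added after the data were seen, other measures of window length and identity with an IDR peak.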

Additional observations from a re-analysis of the deposited data

Results flagged for a closer look

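The dm3 lists hold regions on separate heterochromatin contigs of arms 2L, 3L, 3R and X, which no comparison above uses. The pooled dm3 list held 30 regions there (0, 8, 3 and 19 by arm), the replicate 1 list 34 and the replicate 2 list 14. The dm3 IDR list held 0. The pooled and replicate dm3 lists each hold 30000 regions and the dm3 IDR list 5094. A count of 0, as in the IDR list, allows up to 3 counts. No control samples were analysed here and no density was computed for these contigs, so the other counts have no background beside them. Positions were not converted between builds, and overlap with the dm6 members was not tested.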

How the results depend on the processing

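No paired analysis was possible because there is 1 group. The files give no read depth, regions of 1 genome share chromatin and libraries, and the window edges are round positions, so the values below describe these lists and carry no test. Of 57 alternatives, 30 were counted as leaving the value the same and 27 as moving it. The direction against the rest of the arms was kept in 53. The exceptions were the share of A and T, 60.6% against 62.6% in the 10000 strongest regions, and the share in repeated sequence, which rests on 1 member: it was 0 in the 10000 strongest regions and 0 to 0 with single replicates.

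With windows cut back by 500 kb, density was 3.65 regions per Mb, the IDR share 0, the median signal 25.1, the share in both replicates 16.7% and the genes with an IDR peak 0. With windows widened by 500 kb these were 30.7, 12%, 35.6, 39.2% and 47. Among the 10000 strongest regions, which leave 20 members, 20% passed IDR (48.9% of the rest), the median signal was 82.9 (95.9), 70% were in both replicates (88.4%) and 75% at promoters (48.6%). Density was 30.4 over single-copy length and 15.2 outside transposable elements. The share in both replicates was 19.2% within 100 bp and 38.4% within 500 bp, and the promoter share 27.8% within 200 bp (20.9% of the rest). With single replicates, density ran from 6.99 to 14.6 per Mb, the median signal from 13.0 to 23.1, the share also listed in the other replicate from 23.1% to 45.8%, and genes with a region of IDR-list strength from 3 to 7.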
